A study of Mus musculus with 4 samples.

Results

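The oxidative phosphorylation system was followed through the nuclear genes that encode its subunits, chosen as every gene of the count table whose symbol begins with Nduf followed by a, b, c, s or v and a number, with Uqcr, with Atp5 or with Cox4 to Cox8, together with Sdha to Sdhd, Cyc1 and Cycs. The rule uses names and no measured value. It found 82 of the 12486 genes in the table. By the complex in which the protein works they divide into 36 genes of complex I, 4 of complex II, 9 of complex III, 15 of complex IV, 17 of complex V and the electron carrier cytochrome c. Ndufa4 and Ndufa4l2 were counted with complex IV, to which the Ndufa4 protein belongs. Ndufb1-ps, counted with complex I, is annotated as a noncoding RNA and was kept because of its name.

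Mitochondria make most of a resting cell's ATP by passing electrons down a chain of membrane complexes. Complex I takes electrons from NADH and complex II takes them from succinate, ubiquinone carries them to complex III, and cytochrome c carries them on to complex IV, which reduces oxygen. Complexes I, III and IV pump protons out of the matrix, and complex V, the ATP synthase, lets them flow back and makes ATP. The mitochondrial genome encodes a few core subunits, and all others come from nuclear genes such as those described here. Pluripotent stem cells are known for a high rate of glycolysis, although they keep a working respiratory chain.

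The libraries came from AN3-12 mouse embryonic stem cells (mESCs), a diploid line derived from the haploid line HMSc2 and grown without feeders in serum and LIF. All cells carried AID-Zfp574, in which the zinc-finger protein Zfp574 has an auxin-inducible degron at its N-terminus, in a parental line that expresses the plant ubiquitin ligase adaptor OsTir1 with mCherry from an EF1a promoter. The control group received no auxin (0 h) and the depletion group received 500 µM of the auxin indole-3-acetic acid (IAA) for 6 h, with 2 biological replicates each. Engaged RNA polymerase was mapped by PRO-seq, in which nascent RNA is labelled in a nuclear run-on, so that a count reflects transcription under way and not the amount of messenger RNA. Single clones of tagged cells were genotyped when the line was made, and whether the replicates come from more than 1 clone is not given in the sources used here. No untagged cells treated with auxin were analysed here, so that loss of Zfp574 and auxin itself cannot be told apart. Counts come from a population of cells, in which fewer cells transcribing a gene and less transcription per cell cannot be told apart.

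The control libraries held 3298864 and 3616429 counts in total, and the depletion libraries held 6045216 and 5670904. Chi-square over degrees of freedom was 1.88 for the control pair and 1.49 for the depletion pair, where sampling noise alone gives about 1. For Zfp574 itself the controls had 80 and 130 counts and the depletion libraries 195 and 219, a log2 fold change of 0.25 (SE 0.14; edgeR quasi-likelihood adjusted p 0.406). The degron acts on the protein, so that these counts do not check the labels. Of 12 embryonic stem cell identity genes 10 were in the table. They summed to 5111 and 5040 CPM (counts scaled to a common library size) in the controls and 5190 and 5114 after depletion. Most of this sum came from Esrrb, Tfcp2l1 and Tbx3, with control means of 1764, 1431 and 897 CPM, so that it says little of the others. Utf1 of this list was called lower, as described below, where 1.4% of all genes were. Of 14 genes of differentiated or feeder cells 7 were in the table, 4 passed the filter on low counts and none was called, with sums of 40.0 and 44.8 CPM against 48.0 and 51.3. The depletion libraries thus lay above the controls for the latter list, whose part in the results was not tested.

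To ask whether transcription of the respiratory chain changed with loss of Zfp574, the 2 conditions were compared gene by gene. Of the 82 genes, 79 passed the filter on low counts. Depletion lowered 2 of these at an adjusted p under 0.05, Ndufb7 of complex I and Atp5g2 of complex V, and of these Ndufb7 alone by at least 2-fold. No respiratory chain gene was called higher. Over all 11853 genes tested, 0.321% were lower by at least 2-fold, 1.4% were lower and 1.11% were higher at the same adjusted p, so that 1 of 79 and 2 of 79 (2.53%) lie near the background. At an unadjusted p under 0.05, 10 respiratory chain genes were lower and 1, Ndufa2, was higher, where 7.66% and 8.53% of all genes were. Among the uncalled genes the smallest adjusted p was 0.148, that of Cox6b2. With DESeq2 in place of edgeR, Atp5g2 alone was called, against 0.515% of all genes.

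Ndufb7 encodes an accessory subunit of the membrane arm of complex I, on the side facing the intermembrane space (ENSMUSG00000033938, chromosome 8, 83566671 to 83571626, plus strand, mm10). Its counts were 24 and 42 for the controls and 26 and 20 for the more deeply sequenced depletion libraries. These correspond to 7.21 and 11.5 CPM in the controls and 4.37 and 3.56 CPM after depletion. Both depletion libraries lay below both controls, which also differed from each other. The log2 fold change was -1.24 (SE 0.28), and the quasi-likelihood test of edgeR gave an adjusted p of 0.0116. The call was lost without control replicate 2, where the log2 fold change was -0.86 (adjusted p 0.238). It was also lost without depletion replicate 1 (-1.40, adjusted p 0.0649) and without depletion replicate 2 (-1.11, adjusted p 0.148). DESeq2 gave the same log2 fold change of -1.24 with an adjusted p of 0.527. No other gene of the table starts within 1000 bp of Ndufb7 on the opposite strand.

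Atp5g2 encodes subunit c of the ATP synthase, the membrane protein whose copies form the rotating ring driven by protons (ENSMUSG00000062683, chromosome 15, 102662864 to 102672352, minus strand, mm10). Its counts were 754 and 756 before and 700 and 735 after depletion, or 226.6 and 206.3 CPM against 117.6 and 130.8 CPM. The conditions were far apart and the replicates close together. Its transcription fell by 42.6%, a log2 fold change of -0.80 (SE 0.07) with an adjusted p of 7.71e-09 (edgeR). The fall was called under every other scaling, test and filter tried and without any single library, with log2 fold changes from -0.90 to -0.72. It did not reach 2-fold in any of them.

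The mature subunit c is the same protein whether it is made from Atp5g1, Atp5g2 or Atp5g3, which differ in the presequence that directs import into mitochondria. Atp5g1 had 9.02 and 6.00 CPM in the controls and 7.06 and 5.87 CPM after depletion. Its libraries overlapped, and the log2 fold change was -0.20 (SE 0.26, adjusted p 0.775 by edgeR). Atp5g3 had 17.4 and 17.7 CPM against 18.3 and 16.4 CPM, again with overlap and with a log2 fold change of -0.02 (SE 0.17, adjusted p 0.975 in the same test). The fall was thus called for Atp5g2 and for neither paralog, although the difference between the paralogs was not tested. The 95% interval of the log2 fold change ran from -0.71 to 0.32 for Atp5g1 and from -0.34 to 0.31 for Atp5g3, and that of Atp5g2 from -0.94 to -0.67. Without control replicate 2 Atp5g1 was -0.47 (SE 0.33). Per kilobase of annotated gene, the controls had 22.8 ± 1.51 CPM (SD, n = 2) for Atp5g2, 6.11 ± 0.0761 for Atp5g3 and 1.10 ± 0.312 for Atp5g1. Atp5g2 thus made up 76.4% and 75.5% of the subunit c signal per kilobase in the controls, and 62.6% and 67.8% after depletion. The sum over the genes of the family went from 31.3 and 28.8 to 19.8 and 20.3 CPM per kilobase. Atp5g2 remained the most transcribed gene of the family in each of the 4 libraries.

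**Figure D1:**
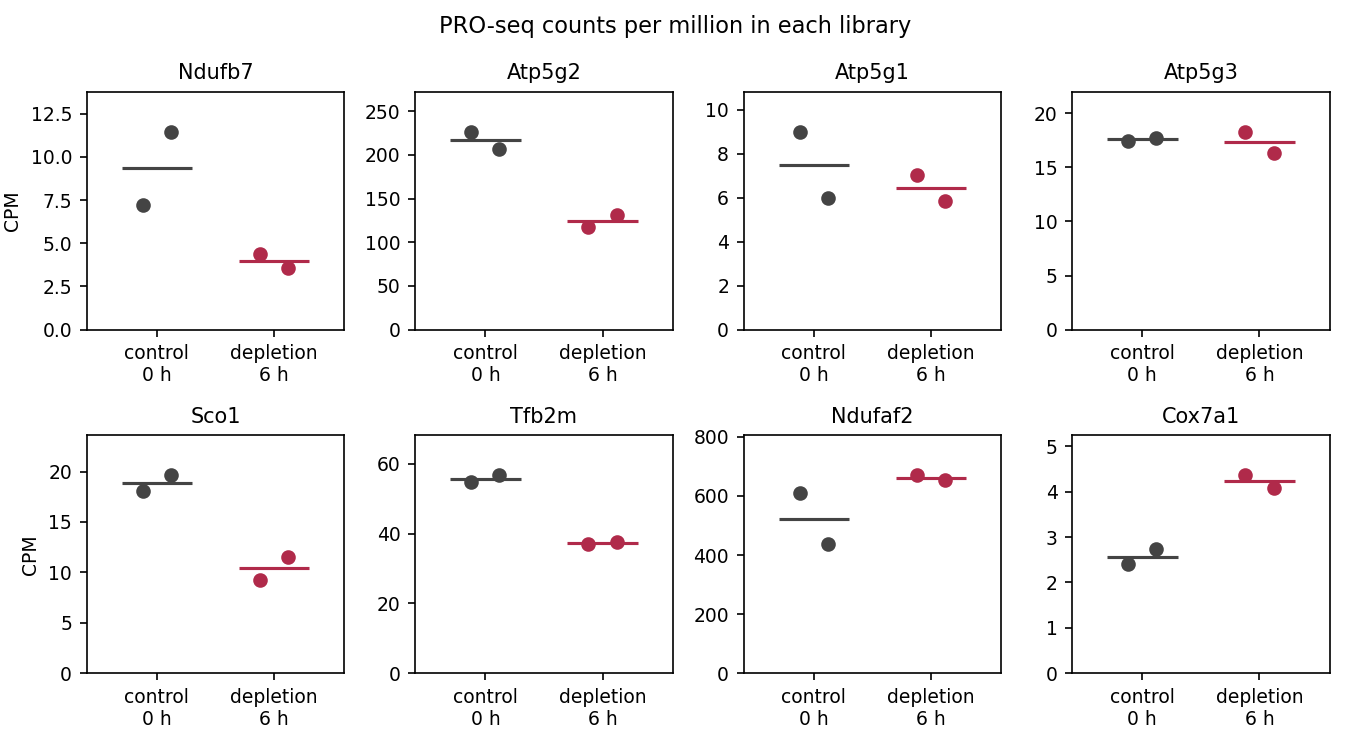
CPM of 8 genes in each library, control 0 h (grey) and depletion 6 h (red), with the mean of the 2 libraries as a horizontal line and each vertical axis starting at 0. Atp5g2, Sco1 and Tfb2m show depletion libraries well below the controls, Ndufb7 lies lower with unequal controls (7.21 and 11.5 CPM), and Atp5g1 and Atp5g3 overlap.

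The promoters of Ndufb7 and Atp5g2 are shown because these were the called genes, and those of Atp5g1 and Atp5g3 because they give the same mature protein without a called fall. Each window holds 250 bases before and 50 after the RefSeq start on GRCm38.p6, 5′ to 3′ on the strand of the gene, at chr8:83566508-83566807 (plus), chr15:102670998-102671297 (minus), chr11:96075582-96075881 (minus) and chr2:73911277-73911576 (minus). Capitals mark matches on either strand to CCGGAAG (bound by ETS factors such as GABP), GCATGCGC (NRF1), AAGATGGCG (YY1), GGGCGG (Sp and KLF factors) or TATAAA (the TATA box).
Ndufb7: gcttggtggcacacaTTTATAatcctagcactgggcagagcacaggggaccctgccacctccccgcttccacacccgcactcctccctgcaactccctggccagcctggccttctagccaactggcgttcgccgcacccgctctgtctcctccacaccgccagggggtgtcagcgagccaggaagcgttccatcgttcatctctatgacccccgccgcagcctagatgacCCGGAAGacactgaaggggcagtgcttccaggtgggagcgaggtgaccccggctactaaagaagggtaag
Atp5g2: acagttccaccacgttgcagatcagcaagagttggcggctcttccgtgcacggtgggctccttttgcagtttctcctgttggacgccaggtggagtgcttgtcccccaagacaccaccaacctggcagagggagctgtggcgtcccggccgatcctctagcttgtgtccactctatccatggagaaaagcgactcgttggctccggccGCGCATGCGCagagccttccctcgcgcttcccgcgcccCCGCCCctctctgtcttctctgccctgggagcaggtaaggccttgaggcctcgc
Atp5g1: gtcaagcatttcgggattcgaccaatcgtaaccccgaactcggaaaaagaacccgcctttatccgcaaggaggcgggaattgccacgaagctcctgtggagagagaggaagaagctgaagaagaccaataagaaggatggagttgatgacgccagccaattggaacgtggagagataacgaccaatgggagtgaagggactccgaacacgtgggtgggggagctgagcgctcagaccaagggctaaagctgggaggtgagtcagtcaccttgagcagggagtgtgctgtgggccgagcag
Atp5g3: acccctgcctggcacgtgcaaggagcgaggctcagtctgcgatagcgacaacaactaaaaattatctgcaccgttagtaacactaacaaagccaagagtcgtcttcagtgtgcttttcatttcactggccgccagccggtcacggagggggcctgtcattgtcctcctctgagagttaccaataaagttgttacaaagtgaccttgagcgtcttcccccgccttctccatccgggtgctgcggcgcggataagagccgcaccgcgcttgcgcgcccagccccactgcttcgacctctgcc
The Ndufb7 window holds CCGGAAG from 20 to 14 bases before the start, and TATAAA on the other strand 235 to 230 bases before it. The Atp5g2 window holds GCATGCGC on both strands in overlapping matches between 42 and 33 bases before the start, and GGGCGG on the other strand across the start itself. None of these letters occurs in the windows of Atp5g1 and Atp5g3. RefSeq and GENCODE starts lie 87 bp apart for Ndufb7, 1305 bp for Atp5g2 and 39 bp for Atp5g1, and coincide for Atp5g3.

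Of the 82 respiratory chain genes 68 had a promoter in the RefSeq table. Those not matched included Ndufs1, Ndufb9, Ndufa2, Sdhc, Uqcrc2, Cyc1, Uqcrb, Uqcrq, Cox4i1, Cox6c, Ndufa4l2, Atp5a1 and Atp5mpl. CCGGAAG was found in 25% of them (17 genes), against 20.4% of the promoters of the count table's genes and 9.93% of all 27025 genes with a promoter. GCATGCGC was found in 16.2% (11 genes), against 6.2% and 3.05%. AAGATGGCG was found in 10.3% (7 genes, of which 5 belong to complex I and 2 to complex V), against 3.68% and 1.64%. No test was made of these shares. GGGCGG, the GC box, was found in 41.2% (28 genes), against 69% of the table's genes and 38.2% of all, and TATAAA in 8.82% (6 genes), against 8.55% and 15.7%. A gene was counted when any of its promoter windows held the letters, and the 27025 genes had 32851 windows. The number of windows per gene was not compared between the groups. A match says only that the letters are there.

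Complex I was described by its 34 tested genes, of which Ndufb7 was called and 23 had a log2 fold change below 0. Among core subunits that carry the flavin and the iron-sulphur clusters, or help to bind ubiquinone, Ndufv2 had -0.33 (SE 0.12), Ndufs1 -0.31 (SE 0.16), Ndufs7 -0.24 (SE 0.16), Ndufs3 -0.06 (SE 0.12), Ndufv1 0.15 (SE 0.19) and Ndufs8 0.43 (SE 0.24). None of these was called, and their values lay on both sides of 0. The highest value of the complex was that of the accessory subunit gene Ndufa2, with counts of 40 and 27 against 82 and 70, a log2 fold change of 0.45 (SE 0.22) and an edgeR adjusted p of 0.2995. Leaving out control replicate 1 moved it to 0.83, and leaving out control replicate 2 to 0.13. Ndufa7, the most transcribed gene of the complex per kilobase at 8.95 ± 0.550 CPM in the controls (SD, n = 2), had 427 and 431 counts against 704 and 643 and a log2 fold change of -0.08 (SE 0.07). Ndufa3, with counts of 2 and 5 against 5 and 7, and Ndufb11, with 6 and 10 against 11 and 9, were removed by the filter. The counts of Ndufa13 and Ndufb9 are uncertain because a gene of the count table (Yjefn3 and Gm49356) overlaps each on the same strand. In all complexes together, 12 genes overlap an annotated gene on the same strand. The longest overlaps with genes absent from the count table were those of Cox4i1 (5986 bp), Ndufb8 (4260 bp), Ndufb2 (4022 bp) and Atp5o (1769 bp). What these overlaps add to the counts was not tested.

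Complex II, which is also the succinate dehydrogenase of the citric acid cycle, is encoded entirely in the nucleus. Its flavoprotein gene Sdha had a log2 fold change of 0.00 (SE 0.12), from counts of 136 and 130 against 233 and 209. The iron-sulphur subunit gene Sdhb, the most transcribed of the 4 per kilobase at 3.18 ± 0.127 CPM (SD, n = 2), had 58.9 and 55.7 CPM against 53.9 and 50.4 CPM and a log2 fold change of -0.13 (SE 0.10). The membrane anchor genes were the extremes, Sdhd at -0.18 (SE 0.17) and Sdhc at 0.04 (SE 0.15). No gene of the complex was called, and only Sdhb had both depletion libraries below both controls.

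Complex III had 9 tested genes and no call. Uqcrh, the hinge protein that helps cytochrome c dock, was lowest with counts of 26 and 33 against 34 and 41 and a log2 fold change of -0.38 (SE 0.25, adjusted p 0.485 by edgeR). The small subunit gene Uqcr11 was highest at 0.44 (SE 0.41), from 7 and 9 counts against 18 and 18. The core protein genes Uqcrc1 and Uqcrc2 had -0.32 (SE 0.17) and -0.25 (SE 0.18), and the genes of the electron carriers Uqcrfs1, the Rieske protein, and Cyc1, cytochrome c1, had -0.15 (SE 0.11) and -0.15 (SE 0.12). Uqcrq, a ubiquinone-binding subunit gene, was the most transcribed per kilobase at 18.6 ± 1.55 CPM (SD, n = 2) and had a log2 fold change of 0.04 (SE 0.10). Cycs, which encodes cytochrome c, had 10.2 and 10.4 CPM in the controls, 9.74 and 8.54 CPM after depletion and a log2 fold change of -0.17 (SE 0.21).

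Complex IV had 14 tested genes and no call. The highest level per kilobase among all 82 genes was that of Cox7c, at 77.3 ± 5.84 CPM in the controls and 69.3 ± 2.77 CPM after depletion (SD, n = 2), with a log2 fold change of -0.16 (SE 0.07, adjusted p 0.245 by edgeR). Cox4i1, the ubiquitous form of subunit 4, had 13.8 ± 0.432 CPM per kilobase in the controls and a log2 fold change of -0.20 (SE 0.09, adjusted p 0.236). In both genes the depletion libraries lay below the controls, by less than the test could call. Cox6a1 had 0.01 (SE 0.35) and Cox8a 0.01 (SE 0.18), and both signs turned negative with other scalings. Ndufa4 had 0.06 (SE 0.15), and its relative Ndufa4l2, a gene known for induction under low oxygen, was removed by the filter with 2 and 3 counts against 5 and 3.

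Several complex IV subunits have tissue-restricted forms. Cox6b2, the form best known from testis, had 26.7 ± 4.30 CPM per kilobase in the controls, against 0.758 ± 0.117 for the ubiquitous Cox6b1 (SD, n = 2). Cox6b2 was thus the more transcribed form in these cells at every library. It had 38.8 and 30.8 CPM in the controls and 27.6 and 26.2 CPM after depletion, a log2 fold change of -0.37 (SE 0.13) and an edgeR adjusted p of 0.148. Without control replicate 2 its adjusted p was 0.0296, and without control replicate 1 it was 0.691. Cox6b1 had -0.17 (SE 0.27). In the subunit 7a family Cox7a1, the heart and muscle form, was the highest value of all 79 genes, with counts of 8 and 10 against 26 and 23, a log2 fold change of 0.71 (SE 0.37) and an adjusted p of 0.344 in the same test. Cox7a2, the form of most tissues, was the lowest of complex IV at -0.50 (SE 0.26, adjusted p 0.356), from 27 and 26 counts against 34 and 28. Neither change was called, and the difference between them was not tested. Their levels per kilobase were 1.33 ± 0.119 for Cox7a1 and 1.68 ± 0.159 for Cox7a2 in the controls, and after depletion Cox7a1 had 2.26 and 2.12 and Cox7a2 1.26 and 1.10 in the single libraries. Cox7a2l, which acts in supercomplex assembly, had the highest level of the family at 4.68 ± 0.804 CPM per kilobase in the controls and a log2 fold change of -0.23 (SE 0.10, adjusted p 0.256). It was -0.40 (adjusted p 0.0196) without control replicate 2 and -0.05 (adjusted p 0.918) without control replicate 1.

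**Figure D2:**
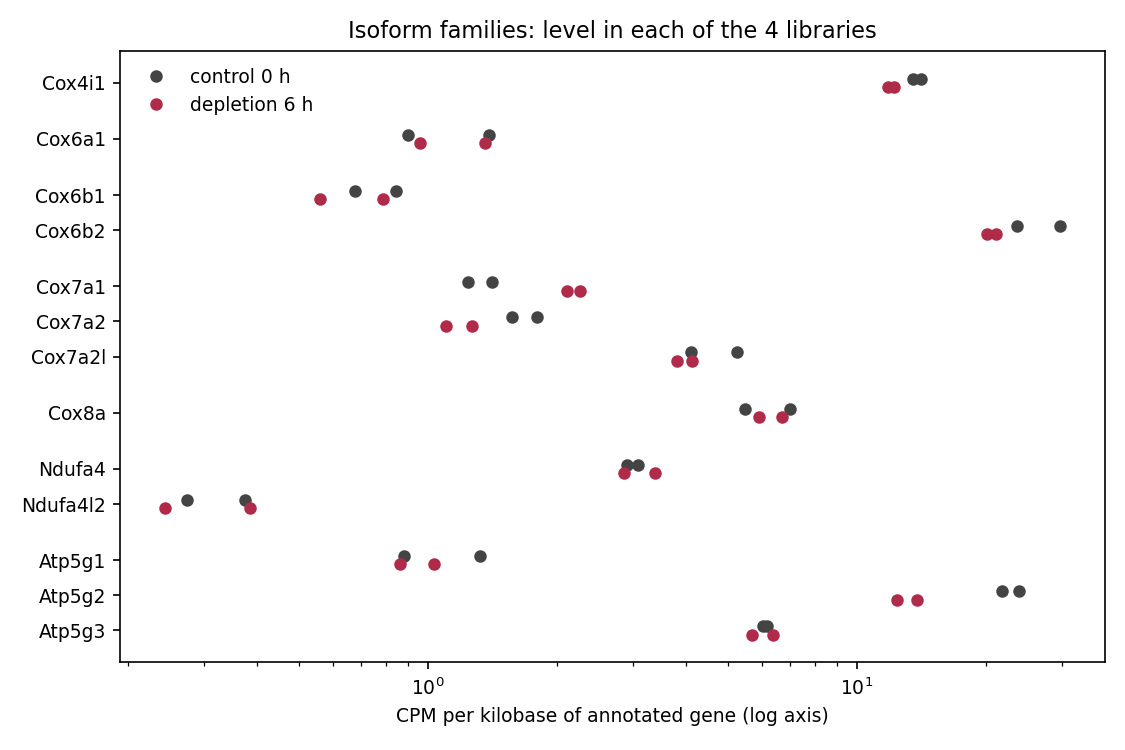
CPM per kilobase of annotated gene, on a log axis, for genes of the isoform families in each of the 4 libraries (grey, control 0 h; red, depletion 6 h; 2 points each). Atp5g2 (22.8 to 13.1 on average) and Cox6b2 (26.7 to 20.6) are the highest forms of their families in every library, and Cox7a1 and Cox7a2 exchange order between conditions.

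Complex V had 17 tested genes, of which Atp5g2 was called and 13 had a log2 fold change below 0. In the catalytic F1 part, Atp5a1 had -0.17 (SE 0.07, adjusted p 0.211 by edgeR), Atp5b -0.09 (SE 0.08), Atp5c1 -0.07 (SE 0.07), Atp5e -0.13 (SE 0.12) and Atp5d, the highest of the complex, 0.24 (SE 0.19). In the peripheral stalk that holds F1 in place, Atp5o had -0.45 (SE 0.21, adjusted p 0.269), Atp5j -0.20 (SE 0.18), Atp5h -0.19 (SE 0.40) and Atp5pb 0.03 (SE 0.08). No gene of either part was called. The summed signal of the complex was 846.6 and 868.2 CPM in the controls and 723.4 and 732.4 CPM after depletion. Without Atp5g2, which held 25.2% of the control sum, it was 620.0 and 661.9 against 605.8 and 601.6 CPM.

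**Figure D3:**
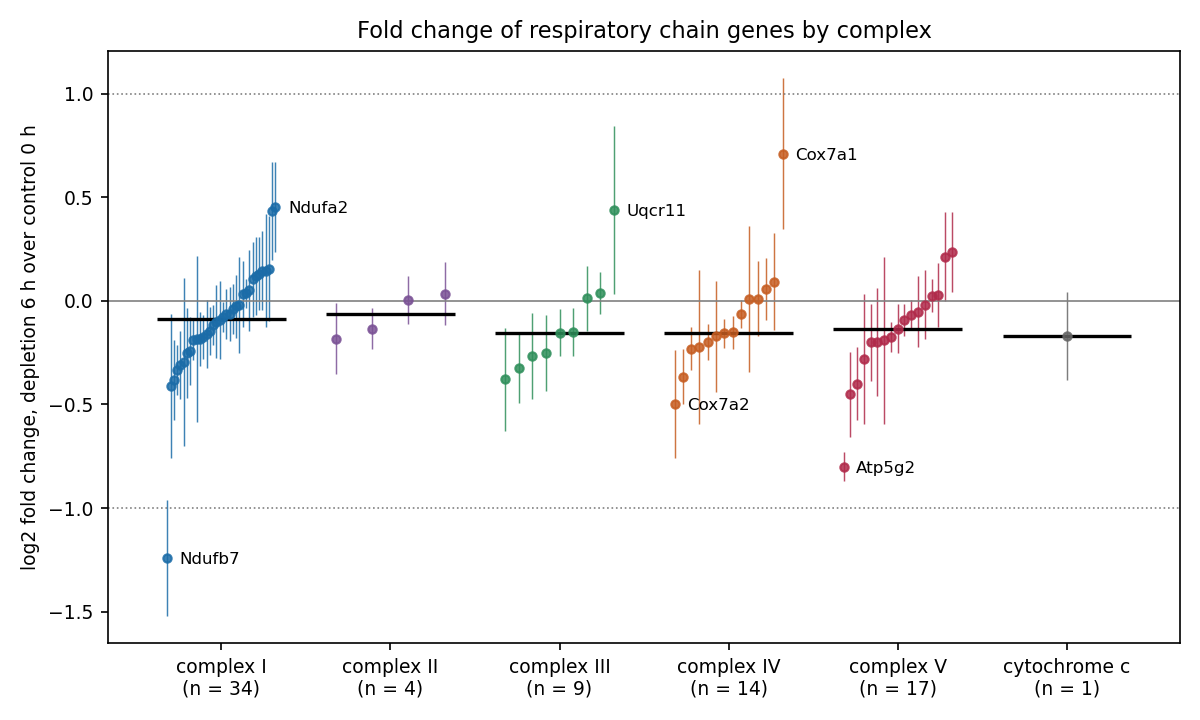
Log2 fold change of the 79 tested genes, depletion 6 h over control 0 h, in order of size within each complex, with standard errors as thin lines, the median of each complex as a black bar and dotted lines at 2-fold. Ndufb7 (-1.24) lies beyond 2-fold and Atp5g2 (-0.80) stands below the other genes of complex V, while the medians lie between -0.17 and -0.06.

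Across the 79 genes, 54 had a log2 fold change below 0 (68.4%), against 50.6% of all genes tested. Both depletion libraries lay below both controls in 29 (36.7%) and above them in 7 (8.86%), where all genes gave 22.9% and 23.4%. The median log2 fold change was -0.13, against 0.00 over all genes. Measured against the median of all genes, it was -0.08 for complex I, -0.06 for complex II, -0.15 for complex III, -0.15 for complex IV and -0.13 for complex V. Members of a complex are not replicates, and the differences between complexes were not tested.

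The shift of the respiratory chain genes against all genes, -0.13, was -0.08 without control replicate 1 and -0.08 without depletion replicate 2. Complex I moved to -0.02 when control replicate 1 was left out, to -0.14 when control replicate 2 was and to -0.05 when depletion replicate 1 was. Complex II turned to 0.01 without control replicate 1 and to 0.04 without depletion replicate 2, was -0.14 when control replicate 2 was left out and -0.11 when depletion replicate 1 was, and complex IV went to -0.07 without control replicate 1 and to -0.23 without control replicate 2. Complex V moved to -0.20 when control replicate 1 was left out, to -0.09 when control replicate 2 was and to -0.07 when depletion replicate 2 was. The respiratory chain genes are also short, with a median annotated length of 7284 bp against 22210 bp over all genes. Over 11844 genes the log2 fold change rose with gene length (Spearman's rho 0.27, across genes, which are not independent replicates), whereas rho was -0.03 over the 79 genes. With each library's trend on length removed, the shift was -0.07, with -0.03 for complex I, -0.04 for complex II, -0.09 for complex III, -0.10 for complex IV and -0.07 for complex V. With the size factors recovered from the deposited normalized means, which move the median of all genes to -0.10, 8 of the 79 genes were called lower against 5.89% of all genes: Ndufb7, Atp5g2, Ndufv2, Cox4i1, Cox6b2, Cox7a2l, Cox7c and Atp5a1.

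**Figure D4:**
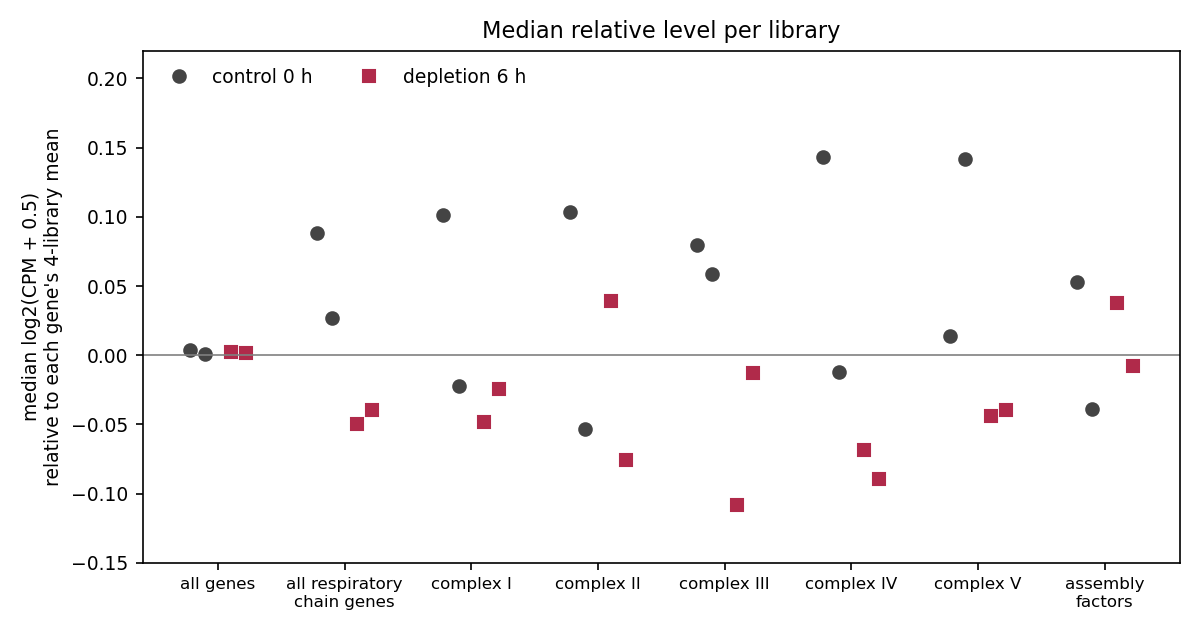
Median over genes of log2(CPM + 0.5) in each library relative to the gene's mean over the 4 libraries, for all genes, all respiratory chain genes, each complex and the assembly factors (grey circles, control 0 h; red squares, depletion 6 h). For all respiratory chain genes the controls lie at 0.09 and 0.03 and the depletion libraries at -0.05 and -0.04, while in complex I control replicate 2 lies next to the depletion libraries.

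How small a change could be seen differed between the genes. Where the mean count was 100 or more (31 genes) single genes had a median standard error of 0.10, and where it was under 50 (23 genes) they had 0.27. Of the 78 tested genes not called at 2-fold, 73 had a 95% interval within 2-fold in both directions. For the remaining ones a 2-fold change was not excluded at this depth. The count of 73 rests on the standard errors of edgeR, and those of DESeq2 were larger for low counts. They were 0.586 against 0.351 for Cox6a1, 0.437 against 0.263 for Atp5g1 and 0.447 against 0.269 for Cox6b1. With the DESeq2 errors the intervals of these genes reach beyond 2-fold, so that such a change was not excluded for them either.

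Assembly factors insert cofactors and subunits and are not part of the finished complexes. Of 52 tested, 1 was lower and 2 were higher (1.4% and 1.11% of all genes were), with a median log2 fold change of 0.01. Sco1, which delivers copper to complex IV, had counts of 60 and 72 against 55 and 65, or 18.0 and 19.7 CPM against 9.24 and 11.6 CPM. Its log2 fold change was -0.86 (SE 0.19), with an edgeR adjusted p of 0.00701, and the call was lost with DESeq2 and without depletion replicate 1. Ndufaf2, which acts late in complex I assembly, went from 608.3 and 437.0 CPM to 670.5 and 652.3 CPM, a log2 fold change of 0.34 (SE 0.08, adjusted p 0.0134 in the same test). Leaving out control replicate 1 moved it to 0.60 and leaving out control replicate 2 to 0.12 (adjusted p 0.214), and the call was also lost without either depletion library, with DESeq2 and with the length trend removed. Taco1, an activator of the translation of a mitochondrially encoded complex IV subunit, had a control mean of 3662 CPM. The median over the tested complex IV assembly factors was 19.8 CPM. Same-strand overlaps were listed for respiratory chain genes only, and what they add to the counts of Taco1 was not tested. Taco1 went from 4135 and 3189 CPM to 4796 and 4043 CPM, with libraries that overlapped. Its log2 fold change was 0.27 (SE 0.07, edgeR adjusted p 0.0318). Leaving out control replicate 1 moved it to 0.47, control replicate 2 to 0.10 (adjusted p 0.0896) and depletion replicate 1 to 0.15 (adjusted p 0.561), and the call was also lost with DESeq2, the likelihood ratio test, the stricter filter, library totals and the recovered size factors. The lowest value of the list, outside the rule for naming and chosen after it was seen, was that of the complex III factor Uqcc3 at -1.52 (SE 0.44, adjusted p 0.0654), from 9 and 19 counts against 9 and 7. Without control replicate 1, in which Uqcc3 had the lower control value, it was called together with Sco1.

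By complex, the assembly factors gave 1 call higher among 18 tested for complex I, 1 lower and 1 higher among 22 for complex IV, and none among 2 for complex II, 5 for complex III and 5 for complex V. Among 15 tested genes for the transcription of respiratory genes and of mitochondrial DNA, 1 was called lower, against the same 1.4% of all genes. Tfb2m, the mitochondrial transcription initiation factor, had 54.7 and 56.8 CPM in the controls and 37.1 and 37.6 CPM after depletion, a log2 fold change of -0.58 (SE 0.11) with an edgeR adjusted p of 0.00101. DESeq2 gave -0.58 with an adjusted p of 0.106, and the call held without any single library. Nrf1 had 0.09 (SE 0.05), Gabpa -0.10 (SE 0.07), Yy1 -0.02 (SE 0.06) and Sp1 -0.06 (SE 0.07), and none of these was called. Gabpb1 and Gabpb2, the partners of Gabpa, had 0.12 (SE 0.07) and 0.09 (SE 0.08) and were not called either. The list held no other ETS, Sp or KLF gene. The citric acid cycle, which feeds electrons to the chain, had no call among 14 tested genes and a median of -0.07. The synthesis of coenzyme Q, the mobile carrier ubiquinone, had none among 13 and a median of -0.10. Among 17 tested rows of glycolysis, for 16 genes, Gapdh was lower, with 181.5 and 203.3 CPM against 164.1 and 162.3 CPM and a log2 fold change of -0.24 (SE 0.07, adjusted p 0.0468 in the same test), and the median was -0.03. The Gapdh call was lost with DESeq2, with the length trend removed, without control replicate 2 (-0.15, adjusted p 0.340) and without depletion replicate 1 or 2 (adjusted p 0.261 and 0.321). Utf1, a chromatin protein of undifferentiated cells, was the called member of the stem cell identity list, at -0.61 (SE 0.12, adjusted p 0.00358 in the same test), and the list's median was 0.00. Its call was lost with DESeq2 (adjusted p 0.256), without control replicate 2 (adjusted p 0.0739) and without depletion replicate 1 or 2 (adjusted p 0.0519 and 0.0852).

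Some respiratory chain genes start close to a gene on the opposite strand. A partner in the table started within 1000 bp of 28 of the 82 genes. The share of all genes with such a partner was not counted. Of the partners 27 were tested and none was called, with a median log2 fold change of -0.10. Over all genes tested 1.4% were called lower and 1.11% higher, so that few calls or none are expected among 27.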

How the data were processed

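PRO-seq libraries of 2 control and 2 depletion replicates were grouped by their labels. The authors separated unique molecular identifiers, trimmed adapters (cutadapt 1.18), mapped reads to mm10 (Bowtie 1.2.2), kept single best positions, collapsed reads by identifier and kept the last base of the nascent RNA on its strand. Per the submitters' processing notes and methods, the deposited counts are such reads over whole genes with CAGE-corrected starts, unnormalized. Near-identical copies are undercounted, and reads of exons with processed pseudogenes are partly lost. The authors also deposited a mean normalized signal per gene, used here to recover their size factors (0.699 and 0.740 in controls, 1.32 and 1.24 after depletion, which differ between replicates although the methods describe a spike-in factor per condition), and their own fold changes, errors, p and adjusted p, which were not used. Spike-in reads were not used here.

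Counts were filtered with filterByExpr (minimum count 10, minimum total 15; 11853 of 12486 genes kept, 633 removed), scaled by TMM and fitted with edgeR 4.0.16 (R 4.3.3; glmQLFit, glmQLFTest, two-sided, condition only, Benjamini-Hochberg over all genes tested). A call is an adjusted p under 0.05, where stated with 2-fold. The standard error is that implied by the F statistic. CPM use TMM-adjusted totals and lengths are GENCODE M21 gene spans on mm10, so levels per kilobase do not use the authors' corrected starts. Reads near the start were not separated from those of the rest of the gene. What this does to the levels per kilobase of short genes was not tested. Intervals are 1.96 standard errors each side. Alternatives used DESeq2 1.42.0, limma 3.58.1 (voom), edgeR's likelihood ratio test, other scalings and filters, a replicate block, a length trend, and each library left out. The test was also run on simulated counts, which cannot show how well its model holds for these libraries. Genes were named by rule: called genes of the respiratory chain and the other lists, the lowest and highest of each complex, the highest level per kilobase, filtered genes and isoform families; others illustrate a role. The members and lists were chosen with earlier results of these data known. p-values measure only the spread between these libraries.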

Additional observations from a re-analysis of the deposited data

How the results depend on the processing

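The count of respiratory chain genes lower by 2-fold, 1, became 0 with DESeq2 and with a mean count of at least 100, a filter that Ndufb7 did not pass, and ranged from 0 to 1 when single libraries were left out. The count called lower, 2, became 8 with the recovered size factors, 1 with DESeq2 and 1 with the stricter filter, and ranged from 1 to 3 without single libraries. The count of assembly factors called lower, 1, became 2 with the recovered factors, the likelihood ratio test and the replicate block (Sco1 and Uqcc3 each time). It became 0 with DESeq2 and with the stricter filter, which Sco1 did not pass. Without single libraries the log2 fold change of Sco1 ran from -1.03 to -0.70. The median of the respiratory chain genes against all genes was -0.0724 with the length trend removed and -0.1411 to -0.0783 without single libraries. Without single libraries, complex I ranged from -0.1405 to -0.0230, complex II from -0.1353 to 0.0393, complex IV from -0.2313 to -0.0682 and complex V from -0.2003 to -0.0730, and complex III was -0.0867 with the length trend removed. No respiratory chain gene was called higher under any alternative run. The cause was not tested.

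Replicate numbers did not pair the samples (r 0.03 between conditions). With the replicate block 1 respiratory chain gene was lower by 2-fold, 2 were lower, and the median against all genes was -0.1296. The alternative without Atp5if1 and Atp5s was not run because the count table as used here lists neither.

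Signs of uncalled genes turned as follows. With library totals Cox6a1 was -0.0237 and Cox8a -0.0235. With the recovered factors, which shift all genes by -0.10, Cox6a1 was -0.0929, Cox8a -0.0932, Ndufa4 -0.0457, Sdhc -0.0675 and Uqcrq -0.0626. With the length trend removed Atp5g3 was 0.0335. Without single libraries, Atp5g1 ranged from -0.4747 to 0.1097, Atp5g3 from -0.1010 to 0.0582, Cox6a1 from -0.2649 to 0.3690, Cox6b1 from -0.4259 to 0.0602, Cox8a from -0.1446 to 0.2013, Ndufa4 from -0.0635 to 0.1768, Sdhc from -0.0551 to 0.1243, Sdhd from -0.4488 to 0.0335 and Uqcrq from -0.0449 to 0.1245. Of 404 values of the 30 named genes under alternatives, 350 kept direction and side of the threshold. A further 28 lost their call, 6 gained it and 20 turned sign. Low counts limit the 23 genes with a mean count under 50.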
